A study of Mus musculus with 12 samples.

Results

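The genes described are 10 factors of naive pluripotency in mouse embryonic stem cells, leaving aside Nanog and the Krüppel-like factors: Esrrb, Nr5a2, Nr0b1, Tfcp2l1, Tbx3, Gbx2, Zfp42, Prdm14, Tcl1 and Fbxo15. They were chosen by symbol from what is known of the naive state, with earlier results of these data also known. Each was found among the 25897 gene symbols of the count table. All 10 passed the filter on low counts, as did 14185 genes in total. After 4 h of Raf activation Gbx2 and Nr0b1 had risen, and Tbx3, Prdm14, Tfcp2l1, Tcl1 and Fbxo15 had fallen. Esrrb, Nr5a2 and Zfp42 did not pass the test at 4 h, although Zfp42 had been higher at 2 h. In a fit that pairs libraries by clone, Nr5a2 and Zfp42 also passed at 4 h, both higher, while Esrrb did not.

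Naive pluripotency is the state of embryonic stem cells that resemble the epiblast before implantation. It is held by a network of transcription factors that reinforce each other and receive input from LIF through Stat3 and from inhibition of GSK3, while FGF signalling through Raf, MEK and ERK moves cells towards the formative epiblast. Esrrb, Tfcp2l1, Tbx3, Gbx2, Nr5a2 and Prdm14 are known as active members of this network, whereas Zfp42 and Fbxo15 are best known as reporters of it, and Tcl1 is a co-activator of the kinase Akt.

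The study asked how the transcriptome of these cells responds over hours to activation of the ERK pathway by a Raf kinase fused to a tamoxifen-responsive receptor domain. Cells were E14tg2a mouse embryonic stem cells of the 129SV strain that carried a cRAF-ERT2 construct, as 3 clones (a, b and c). There were 4 groups of 3 libraries, namely untreated cells and cells given 250 nM 4-hydroxytamoxifen (4OHT) for 1, 2 or 4 h, with each clone in every group. Every culture, untreated ones included, had been grown in serum with LIF and 2 µM of the GSK3 inhibitor Chir99021, was moved 24 h before treatment to serum with LIF and 250 nM of the FGF receptor inhibitor PD173074, and was labelled with 5 mM ethynyl uridine over the last 15 min before harvest. Untreated cells were therefore cells under FGF receptor inhibition, no vehicle group is among the samples, and the protocol text names only 0 h and 2 h of treatment while the titles give all 4 times. Libraries of a group are different clones, and nothing in the labels says how the clones were derived. Levels are given as CPM (counts scaled to library size) in clones a, b and c, and changes as log2 change ± SE from edgeR's quasi-likelihood test with Benjamini-Hochberg adjustment over all genes tested, read at 0.05.

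Libraries held between 24213641 and 31435301 counts. Of 14 genes known as ERK targets and feedback regulators, such as Dusp6 and Spry2, 5 had risen at 1 h. This number grew to 12 at 2 h and to 13 at 4 h, with none lower. Of all genes tested, 0.0775%, 9.56% and 18.0% had risen at these times. The 8 embryonic stem cell markers were all detected, with a summed level of 4571 to 5542 CPM over the 12 libraries. Summed primitive endoderm markers lay between 60.7 and 132 CPM, with Sox17 and Foxa2 under 1 CPM in every library and 0 of 8 past the test at 4 h. Col4a1, at 78.25 ± 29.96 CPM untreated (SD, n = 3), made up most of that sum. A fit with clone as a block called 2 of these 8 lower at 4 h, beside 25.7% of all genes. Feeder fibroblast markers went from 3.49 to 4.33 CPM untreated to 11.6 to 26.6 CPM at 4 h, with 6 of 8 genes under 1 CPM throughout. Both fibroblast markers that could be tested, Thy1 and Col1a1, rose, and Thy1, from 3.42 ± 0.45 to 17.0 ± 7.37 CPM (SD, n = 3), made up most of that sum. Trophoblast markers went from 45.3 to 50.1 CPM to 60.1 to 156 CPM, with Elf5 and Hand1 under 1 CPM in every library. Of 6 tested, 4 rose at 4 h and none fell, beside 18.0% and 15.1% of all genes. The 4 were Eomes (log2 change 2.34), Krt18 (1.92), Gata3 (1.32) and Cdx2, which went from 0.0321 ± 0.0309 to 17.4 ± 14.3 CPM. The fit with clone as a block called 5 higher and 1, Tfap2c, lower, beside 26.2% and 25.7% of all genes. The 7 two-cell-like markers in the table summed to at most 0.41 CPM, and Tcstv1 and Tcstv3 had 0 counts. The part of these cell types in the members' changes was not tested. In such bulk libraries fewer cells of a type and less RNA per cell cannot be told apart.

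Promoters of members that moved in opposite directions are shown first, as the stretch from 250 bases before to 50 bases from the start site. They come from a set of RefSeq promoters (GRCm38.p6), from which sequences of 7 of the 10 members were used. Prdm14, Tbx3 and Fbxo15, which all fell, are not among these 7, so only 2 falling promoters are printed. Capitals mark matches on either strand to 10 short motifs: ETS (CCGGAA), AP-1 (TGANTCA), EGR (GCGNGGG), ESRRB (AAGGTCA), STAT (TTCNNNGAA), octamer (ATGCAAA), TCF (CTTTGAT), the CArG box, the GC box (GGGCGG) and the TATA box (TATAAA), of which the last 2 were added after the sequences had been seen. Sequences run 5′ to 3′ on the gene's strand, and positions count from 0 at the start site. The first 3 belong to genes that rose at 2 h or 4 h and the last 2 to genes that fell.
Gbx2, chr1:89931127-89931426, minus strand: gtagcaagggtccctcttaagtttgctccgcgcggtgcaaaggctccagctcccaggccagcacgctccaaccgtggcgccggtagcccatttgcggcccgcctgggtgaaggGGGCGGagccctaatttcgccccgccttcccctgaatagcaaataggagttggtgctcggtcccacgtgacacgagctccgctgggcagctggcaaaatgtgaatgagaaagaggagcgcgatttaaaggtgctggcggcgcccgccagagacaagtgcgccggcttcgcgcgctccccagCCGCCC
Nr0b1, chrX:86191525-86191824, plus strand: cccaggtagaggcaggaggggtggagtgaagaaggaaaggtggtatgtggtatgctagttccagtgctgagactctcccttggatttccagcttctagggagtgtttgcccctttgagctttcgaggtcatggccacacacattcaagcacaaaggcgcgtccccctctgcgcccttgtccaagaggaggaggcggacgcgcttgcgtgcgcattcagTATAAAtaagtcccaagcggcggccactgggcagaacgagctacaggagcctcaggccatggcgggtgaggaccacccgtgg
Zfp42, chr8:43306960-43307259, minus strand: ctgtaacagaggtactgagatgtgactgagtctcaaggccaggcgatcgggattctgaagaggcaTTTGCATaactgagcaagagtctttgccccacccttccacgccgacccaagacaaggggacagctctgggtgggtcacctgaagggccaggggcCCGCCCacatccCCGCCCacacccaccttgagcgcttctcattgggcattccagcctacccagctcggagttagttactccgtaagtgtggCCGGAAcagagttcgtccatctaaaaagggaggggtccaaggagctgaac
Tfcp2l1, chr1:118627695-118627994, plus strand: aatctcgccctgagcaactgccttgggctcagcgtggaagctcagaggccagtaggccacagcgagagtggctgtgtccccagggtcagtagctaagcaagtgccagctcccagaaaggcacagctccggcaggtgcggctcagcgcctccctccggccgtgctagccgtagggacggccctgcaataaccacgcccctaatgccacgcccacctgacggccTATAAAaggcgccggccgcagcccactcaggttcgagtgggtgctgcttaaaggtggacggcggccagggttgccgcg
Tcl1, chr12:105222688-105222987, minus strand: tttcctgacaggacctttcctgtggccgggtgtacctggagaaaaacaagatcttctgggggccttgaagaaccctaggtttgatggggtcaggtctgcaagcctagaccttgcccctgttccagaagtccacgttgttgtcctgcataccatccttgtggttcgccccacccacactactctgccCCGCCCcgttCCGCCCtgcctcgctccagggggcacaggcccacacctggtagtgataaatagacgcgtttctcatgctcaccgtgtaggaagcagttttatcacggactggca

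None of the 5 printed promoters holds the AP-1, EGR, ESRRB, STAT, TCF or CArG letters, and an ETS match is in Zfp42 alone among them, at positions 0 to 5. ETS letters are in 14.9% of the 32841 RefSeq promoters of this length. Zfp42 also has an octamer at −185 to −179, which 4.63% of promoters hold, and GC boxes at −91 to −86 and −79 to −74. Gbx2 has GC boxes at −137 to −132 and 44 to 49, and Tcl1 has them at −64 to −59 and −54 to −49, while 35.7% of all promoters hold the GC box. Nr0b1, which rose, has a TATA box at −32 to −27, and Tfcp2l1, which fell, has one at −28 to −23, against 13.6% of all promoters. GC content was 64.7% in Gbx2, 58.7% in Nr0b1, 57.7% in Zfp42, 65.3% in Tfcp2l1 and 56.7% in Tcl1, with a median of 52.7% over all promoters. Each of the 5 also had more CpG pairs (27, 14, 11, 21 and 11) than the median promoter, which has 7. No motif searched was therefore shared by the rising promoters and missing from the falling ones. Of the other 2 members with a promoter sequence used here, Esrrb has the STAT letters at −178 to −170 in 1 of its windows. The STAT letters are in 8.3% of all promoters. Nr5a2 has a TATA box at −181 to −176. These are matches of letters and not measured binding.

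At 1 h no member passed the test (0 of 10, edgeR), beside 0.0775% of all genes tested called higher and 0.00% called lower. At an unadjusted p under 0.05 there were 2 members, beside 11.5% of all genes. DESeq2 called 1 member, Nr0b1, beside 0.938% of all genes, and edgeR with clone as a block called 2, Nr0b1 (adjusted p = 0.00461) and Zfp42 (adjusted p = 0.0087), beside 6.99% of all genes. At 2 h 3 members were higher and 2 lower, beside 9.56% and 6.64% of all genes. With clone as a block these became 4 higher and 4 lower, beside 20.6% and 20.0%. At 4 h 2 members were higher and 5 lower, beside 18.0% and 15.1% of all genes, and with the block 4 were higher and 5 lower, beside 26.2% and 25.7%. The 4 h libraries stood wholly above the untreated ones in 3 members and wholly below them in 5, beside 22.8% and 21.9% of all genes. The median change of the 10 members was −0.01, −0.03 and −0.45 at 1, 2 and 4 h, beside −0.02 for all genes tested at each time. Over the 3 treated times together 7 members changed (F test), beside 27.4% of all genes, and with the block also Tfcp2l1 and Nr5a2, 9 in all, beside 56.8%. The count of 5 members at 2 h dropped to 3 without untreated a or b. It dropped to 2 without untreated c, 2 h b, 2 h c or clone b, and to 0 without clone c. Here a library is named by its time and clone. The share of all genes called at 2 h was 16.2% with all libraries and also dropped in each of these fits. It was 7.3% without untreated a, 4.32% without untreated b, 2.63% without 2 h b and 2.35% without 2 h c. Without clone c the 2 h changes were −0.88 (Tbx3), −1.33 (Prdm14), 0.61 (Nr0b1), 0.70 (Zfp42) and 1.37 (Gbx2). With all libraries they were −0.92, −1.40, 0.66, 0.74 and 1.32. Without clone c, with 2 libraries left in each group, the 7 members at 4 h became 4, and the 7 of the F test became 1. The share of all genes called at 4 h went from 33.1% to 6.43%. The members whose 4 h call was then lost had fitted changes of −0.93 (Tfcp2l1), −2.04 (Prdm14) and −0.61 (Tcl1). With all libraries these were −0.96, −2.06 and −0.64.

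**Figure D1:**
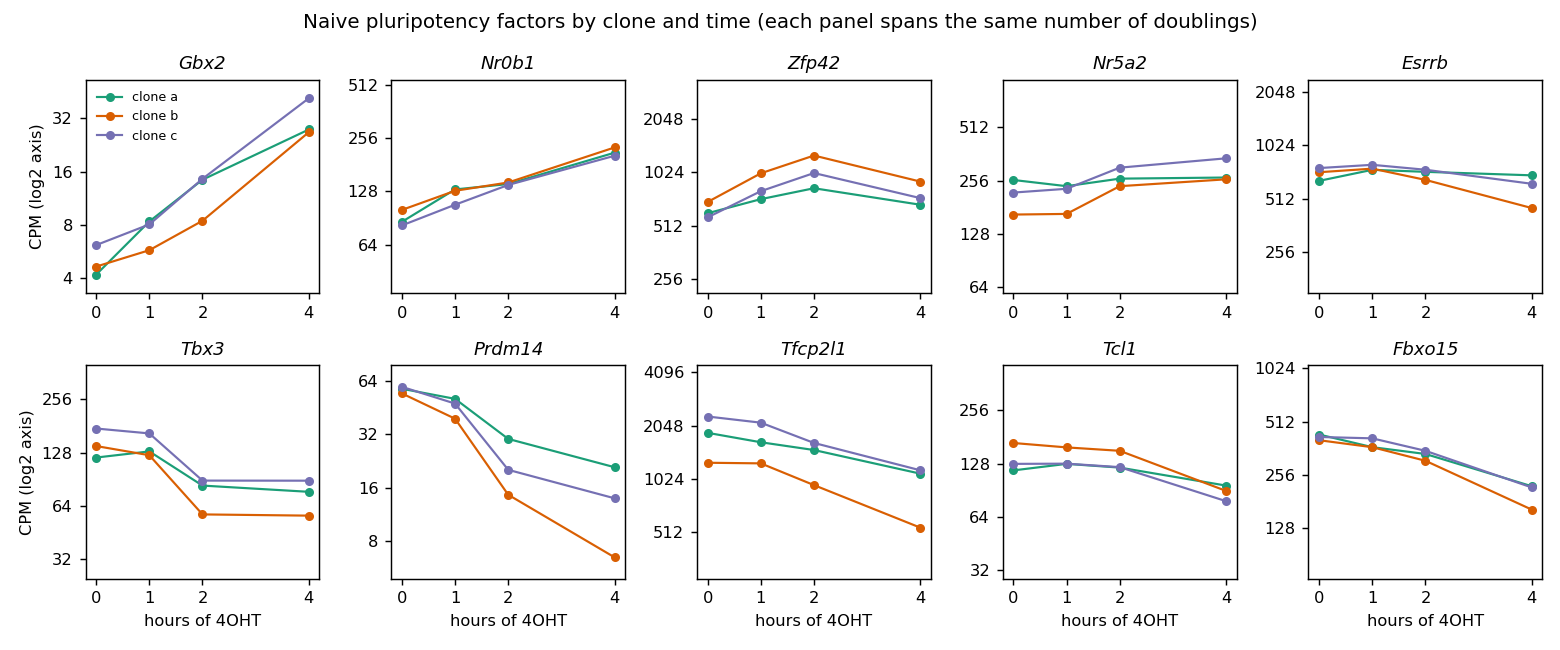
CPM (log2 axis) of each of the 10 members against hours of 4OHT, with 1 line per clone; every panel spans the same number of doublings. Gbx2 and Nr0b1 climb in all 3 clones, Zfp42 is highest at 2 h in all 3, and Prdm14, Tfcp2l1 and Fbxo15 are highest untreated and lowest at 4 h in all 3.

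**Figure D2:**
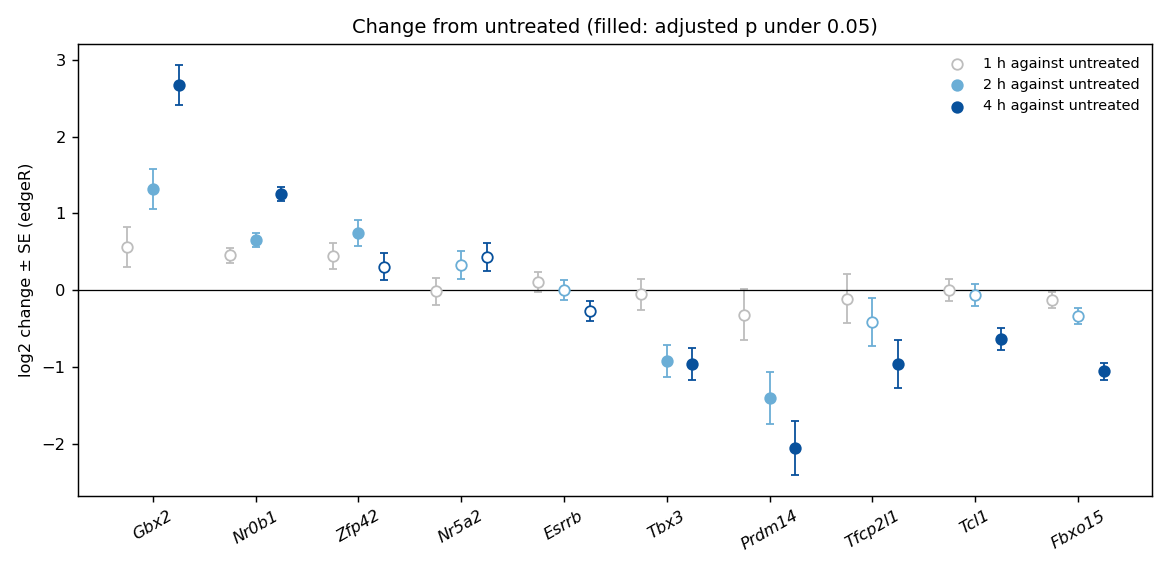
Log2 change from untreated ± SE (edgeR) at 1, 2 and 4 h for the 10 members, where filled points have an adjusted p under 0.05. Gbx2 reaches 2.67 and Prdm14 −2.06 at 4 h, and no point at 1 h is filled.

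Gbx2, a homeobox transcription factor known as a target of LIF and Stat3, was the member with the largest rise. Untreated clones a, b and c had 4.20, 4.66 and 6.16 CPM. They had 8.37, 5.76 and 8.05 CPM at 1 h, 14.4, 8.45 and 14.6 CPM at 2 h, and 27.65, 26.7 and 41.5 CPM at 4 h. Every library at 2 h and at 4 h stood above all 3 untreated libraries, and within each clone the level climbed at every step. The change was 0.56 ± 0.26 at 1 h (adjusted p = 0.444), 1.32 ± 0.26 at 2 h (adjusted p = 0.0121) and 2.67 ± 0.27 at 4 h (adjusted p = 0.000121), or 6.38-fold. From 2 to 4 h alone it rose by a further 1.36 (adjusted p = 0.0151). Leaving out 2 h c (adjusted p = 0.0579), clone a (0.0643) or clone c (0.236) ended the 2 h call. Leaving out 2 h b (0.0524), 4 h c (0.0652), clone b (0.127) or clone c (0.352), or fitting the 2 groups alone (0.099), ended the call from 2 to 4 h. Only 187 of the 14185 genes had a larger fitted change at 4 h. In GENCODE M21 (GRCm38) Gbx2 is at chr1:89927956-89931179 on the minus strand with 2 exons, and 43.45% of its exon bases are also exon of D130058E05Rik on the other strand. The strand setting of the counting is not given in the sources used here, so reads of the 2 genes cannot be told apart. The symbol D130058E05Rik has no row in the count table, so no count of it can be set beside Gbx2.

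The gene whose 9 within-clone changes lay closest to those of Gbx2 was Etv4, an ETS factor and ERK target, with a root mean square difference of 0.25 in log2 units. Robo4 (0.32) and Vsig2 (0.38) came next among 11850 candidate genes, whose median difference was 1.76. Etv4 itself rose by 2.63 at 4 h (adjusted p = 4.89e-05) from 18.2 CPM untreated.

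The nuclear receptors in the set went different ways. Nr0b1 (Dax1), an orphan receptor without the usual zinc-finger DNA-binding domain that binds and represses other receptors, rose. Its untreated levels were 86.2, 100.6 and 82.2 CPM, followed by 131, 129 and 108 CPM at 1 h, 141, 144 and 139 CPM at 2 h and 212, 226 and 203 CPM at 4 h. The untreated libraries did not overlap any treated group, and the 3 clones lay close together at each time. The change was 0.45 ± 0.09 at 1 h (adjusted p = 0.192), 0.66 ± 0.09 at 2 h (adjusted p = 0.00374) and 1.25 ± 0.09 at 4 h (adjusted p = 3.50e-05), or 2.38-fold. Between 2 and 4 h it rose by 0.60 (adjusted p = 0.0079). The 2 h call was lost without clone c (adjusted p = 0.216), and the call from 2 to 4 h without clone b (0.127) or c (0.294) and with the 2 groups alone (0.0665). The gene has 2 exons at chrX:86191764-86195947, plus strand.

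Esrrb, the estrogen-related receptor through which inhibition of GSK3 is known to sustain self-renewal, had 645, 722 and 762 CPM untreated. It had 745, 757 and 795 CPM at 1 h, 726, 654 and 746 CPM at 2 h, and 694, 453 and 621 CPM at 4 h. Treated and untreated libraries overlapped at every time, and the lowest library of all was clone b at 4 h. The change at 4 h was −0.27 ± 0.13, with a 95% interval of −0.55 to 0.02 (adjusted p = 0.132), and at 2 h it was 0.00 ± 0.13, with an interval of −0.29 to 0.28 (adjusted p = 0.991). A fall as deep as that of Fbxo15 or Tbx3 at 4 h is outside the first interval. Without 4 h a the change was −0.40 and passed (adjusted p = 0.0265), as it did without clone a (−0.47, adjusted p = 0.0452). Relative to 1 h, where all 3 clones had their highest level, the 4 h libraries lay wholly lower. That change was −0.38 ± 0.13 (edgeR adjusted p = 0.0618), and it passed with clone as a block (0.0170), with DESeq2 (0.0396), with limma-voom (0.0490), without 4 h a (0.0121) and without clone a (0.0393). The gene lies at chr12:86361117-86521628, plus strand.

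Nr5a2 (Lrh-1), a receptor known to act on the Pou5f1 promoter and to replace Pou5f1 in reprogramming, had 258, 165 and 219 CPM untreated. At 1 h it had 238, 166 and 230 CPM, at 2 h 263, 238 and 303 CPM, and at 4 h 267, 260 and 342 CPM. The 4 h libraries stood above the untreated ones by a narrow margin, as the highest untreated library, clone a, lay just under the lowest at 4 h, clone b. The change was 0.32 ± 0.18 at 2 h (adjusted p = 0.229) and 0.44 ± 0.18 at 4 h (adjusted p = 0.0855). With clone as a block both passed (adjusted p = 0.0269 and 0.00455). The change within clone a was 0.05 at 4 h, and within clones b and c it was 0.66 and 0.64. Without untreated a the 4 h change was 0.59 and passed (adjusted p = 0.0464). The gene lies at chr1:136842571-136960448, minus strand, and stretches of it match 2 other genes at 90% identity or more.

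Zfp42 (Rex1), a zinc-finger protein related to Yy1 and the usual reporter of the naive state, had a maximum at 2 h. Levels were 601, 696 and 570 CPM untreated, 722, 1011 and 801 CPM at 1 h, 832, 1273 and 1014 CPM at 2 h, and 672, 907 and 732 CPM at 4 h. Each clone was lowest untreated and highest at 2 h, and the 1 h and 2 h libraries all stood above the untreated ones, while the 4 h libraries overlapped them. The change was 0.44 ± 0.17 at 1 h (adjusted p = 0.359), 0.74 ± 0.17 at 2 h (adjusted p = 0.0199) and 0.31 ± 0.17 at 4 h (adjusted p = 0.188). With clone as a block the changes at 1, 2 and 4 h all passed (adjusted p = 0.0087, 6.86e-05 and 0.00429). The change from 2 to 4 h was −0.43 (adjusted p = 0.173, and 0.00229 with the block). The 2 h call did not hold without untreated a (adjusted p = 0.06), untreated c (0.0586), 2 h b (0.0884), 2 h c (0.0685), clone b (0.0512) or clone c (0.291). In all 3 clones the level at 4 h was thus above the untreated level and below the 2 h level. Zfp42 lies at chr8:43295063-43306980, minus strand, and 266 bases of it match the pseudogene Zfp42-ps1 at 98.12% identity. The symbol Zfp42-ps1 has no row in the count table.

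Prdm14, a PR-domain protein known to repress FGF receptor and DNA methyltransferase genes, fell most. Untreated levels were 57.9, 54.5 and 59.4 CPM. At 1 h they were 50.8, 39.2 and 47.8 CPM, at 2 h 30.2, 14.6 and 20.2 CPM, and at 4 h 20.9, 6.48 and 13.95 CPM. All 9 treated libraries lay below all untreated ones, and clone b was the lowest at each of the 4 times. The change was −0.32 ± 0.33 at 1 h (adjusted p = 0.783), −1.40 ± 0.34 at 2 h (adjusted p = 0.0231) and −2.06 ± 0.35 at 4 h (adjusted p = 0.00157), or 4.17-fold lower. With clone as a block the adjusted p was 0.000669 at 2 h and 3.03e-05 at 4 h. Only 62 genes had a more negative fitted change at 4 h. The 4 h call was lost without clone c (adjusted p = 0.0701). At 2 h it did not hold without untreated a (0.058), b (0.059) or c (0.0522), 2 h b (0.0925), 2 h c (0.0936), clone b (0.0598) or clone c (0.313). Prdm14 lies at chr1:13113457-13127163, minus strand, with 8 exons. The genes nearest to its pattern were Pkd1l2, Oas1c and Rsph4a, with root mean square differences of 0.22, 0.23 and 0.25 beside a median of 1.62, all 3 under 6 CPM untreated.

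Of 5 genes listed as repressed by Prdm14, 2 rose at 4 h and 1 fell, beside 18.0% and 15.1% of all genes. The DNA methyltransferase Dnmt3a went from 47.5 ± 10.1 to 122 ± 10.8 CPM (SD, n = 3; log2 change 1.37 ± 0.20, adjusted p = 0.00071), and the cofactor Dnmt3l changed by 0.71 ± 0.19 (adjusted p = 0.0137). The receptor Fgfr1 fell from 59.4 ± 7.88 to 33.6 ± 6.89 CPM (−0.82 ± 0.15, adjusted p = 0.00214). Genes past the test thus went both ways, and these counts are not read as a result about the list. Cbfa2t2, the corepressor that partners Prdm14, fell from 186 ± 4.65 to 102 ± 11.7 CPM (−0.87 ± 0.09, adjusted p = 0.000163).

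Tbx3, a T-box factor known to link PI3K and LIF signals to Nanog, had fallen by 2 h and had like levels at 2 and 4 h. Clones a, b and c had 120, 139 and 175 CPM untreated and 130, 124 and 164 CPM at 1 h. They had 83.4, 57.3 and 88.9 CPM at 2 h and 76.9, 56.4 and 88.8 CPM at 4 h. The untreated and 1 h libraries overlapped, and the 2 h and 4 h libraries lay below all of them and overlapped each other. The change was −0.06 ± 0.21 at 1 h and −0.92 ± 0.21 at 2 h (adjusted p = 0.0183, and 0.00026 with clone as a block). At 4 h it was −0.97 ± 0.21 (adjusted p = 0.00523, and 5.73e-05 with the block), or 1.96-fold lower. From 1 to 2 h alone it was −0.86 ± 0.21 (adjusted p = 0.113, and 0.00205 with clone as a block). At 2 h Tbx3 had thus made 95% of its 4 h log2 change, while the step from 2 to 4 h was −0.05. The 2 h call did not hold without untreated b (adjusted p = 0.0511), untreated c (0.0534), 2 h b (0.0719), clone b (0.105) or clone c (0.242), and the 4 h call was kept in all 21 alternatives. Tbx3 lies at chr5:119670669-119684724, plus strand, and 1.74% of its exon bases overlap its antisense gene Tbx3os1.

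Tfcp2l1, a CP2-family factor reached by both LIF and GSK3 inhibition, was spread widely between clones. It had 1868, 1266 and 2309 CPM untreated, 1653, 1256 and 2132 CPM at 1 h, 1494, 947 and 1638 CPM at 2 h, and 1099, 545 and 1148 CPM at 4 h. Clone b was lowest and clone c highest at each time, so the 2 h libraries overlapped the untreated ones and the 4 h libraries lay just below them. The change was −0.42 ± 0.32 at 2 h (adjusted p = 0.373, and 0.00562 with clone as a block). At 4 h it was −0.96 ± 0.32 (adjusted p = 0.0374, and 1.55e-05 with the block), or 1.95-fold lower. The 4 h call did not hold without untreated a (adjusted p = 0.0863), untreated c (0.127), 4 h b (0.112), clone a (0.126) or clone c (0.166), or in a fit of the 2 groups alone (0.0598). Within each clone the level was nonetheless highest untreated and lowest at 4 h, with changes of −0.77, −1.22 and −1.01. The step from 2 to 4 h was −0.55 (adjusted p = 0.362, and 0.00214 with the block). The gene lies at chr1:118627945-118685168, plus strand. It holds stretches that match 40 other genes at 90% identity or more, and 1.38% of its exon bases overlap Gm23497 on the same strand.

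Tcl1 fell late. Its levels were 117, 167 and 127 CPM untreated, 127, 158 and 128 CPM at 1 h, 121, 151 and 122 CPM at 2 h, and 96.1, 89.7 and 78.5 CPM at 4 h. The 4 h libraries lay below the other 9, which overlapped each other. The change was −0.06 ± 0.14 at 2 h (adjusted p = 0.796) and −0.64 ± 0.15 at 4 h (adjusted p = 0.00702), or 1.56-fold lower, so 9.47% of the 4 h log2 change was present at 2 h. The call was lost without clone c (adjusted p = 0.104). From 2 to 4 h the change was −0.58 (adjusted p = 0.0464), which did not pass in 9 of 12 fits without 1 library (adjusted p up to 0.179). This call was also lost with limma-voom (0.0507), without clone a (0.058), b (0.164) or c (0.448) and with the 2 groups alone (0.101). It passed in 7 of the 21 alternatives. Tcl1 lies at chr12:105216750-105222793, minus strand, beside its relatives of the Tcl1 cluster, of which 1 of 5 had enough counts to be tested and did not pass.

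Fbxo15, an F-box protein of ubiquitin ligase complexes and a known Oct4 and Sox2 target, also fell mostly after 2 h. Its levels were 433, 402 and 419 CPM untreated, 367, 367 and 412 CPM at 1 h, 336, 308 and 350 CPM at 2 h, and 221, 163 and 218 CPM at 4 h. Untreated libraries lay above all 2 h and 4 h libraries, and the 4 h libraries below all others. The change was −0.34 ± 0.11 at 2 h (adjusted p = 0.052, and 0.00471 with clone as a block) and −1.06 ± 0.11 at 4 h (adjusted p = 0.000136), or 2.08-fold lower. From 2 to 4 h it fell by 0.72 (adjusted p = 0.00733), a call lost without clone b (0.107) or c (0.294) and with the 2 groups alone (0.0882). Without 4 h a or 4 h b, which enter the estimate of the spread, the 2 h change passed (0.0399 and 0.0114). Fbxo15 is on chromosome 18 and has 12 exons.

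Steps between treated times were tested too. From 1 to 2 h no member passed (0 of 10, edgeR), beside 0.0634% of all genes, and 4 had an unadjusted p under 0.05, beside 16.2%. DESeq2 called 2, Tbx3 and Prdm14, beside 4.05%, and edgeR with clone as a block called 5, Zfp42 and Gbx2 higher and Tbx3, Tfcp2l1 and Prdm14 lower, beside 12.6% of all genes. From 2 to 4 h Nr0b1 and Gbx2 rose and Tcl1 and Fbxo15 fell, beside 3.27% of all genes higher and 1.41% lower. Of these 4 calls 2 were left without 2 h b or without 4 h c, and 0 without clone b, without clone c or with the 2 groups alone. From 1 to 4 h 2 members rose and 4 fell, beside 10.8% and 8.74% of all genes, and 1 of the 6 calls was left without clone c. With clone as a block 3 rose and 6 fell from 1 to 4 h, beside 20.0% and 19.8%, adding Nr5a2 (adjusted p = 0.00542), Esrrb (0.0170) and Tfcp2l1 (5.56e-05). As a share of the 4 h log2 change, the change at 2 h was 68.2% in Prdm14, 52.3% in Nr0b1, 49.2% in Gbx2, 43.2% in Tfcp2l1 and 31.6% in Fbxo15. All changes from untreated share the same 3 untreated libraries.

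The clones differed in the members' levels. With time in the fit, 8 of 10 members differed between clones (edgeR F test), beside 36.0% of all genes, and Esrrb (adjusted p = 0.251) and Fbxo15 (adjusted p = 0.0525) did not pass. The count of 8 was 4 without 1 h b or 2 h b, and 5 without untreated c or 4 h c. Relative to clone a, clone b had less Tfcp2l1 (−0.66), Prdm14 (−0.73) and Nr5a2 (−0.34) and more Zfp42 (0.43), in log2 units.

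The depth of the fall also varied by clone. All 5 falling members fell most in clone b at 4 h, and 4 of the 5 fell least in clone a. Prdm14 changed by −1.47, −3.06 and −2.08 in clones a, b and c, and Tbx3 by −0.64, −1.30 and −0.98. Tcl1 changed by −0.28, −0.90 and −0.70. Esrrb went in opposite directions in clones a and b, by 0.10 and −0.67, with −0.30 in clone c. The changes of the rising members lay close together, with Nr0b1 at 1.30, 1.17 and 1.31 and Gbx2 at 2.70, 2.50 and 2.74. The median change of the 14 ERK targets at 4 h was 1.45, 2.30 and 2.15 in clones a, b and c, and at 2 h it was 1.47, 1.46 and 1.44. Levels of Esr1, whose reads may come from the construct or from the gene itself and cannot be told apart, were 9.44, 93.4 and 38.8 CPM untreated and 18.2, 260 and 39.1 CPM at 4 h. With 1 library per clone and time the difference in response between clones was not tested, nor was the part of these values in it.

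**Figure D3:**
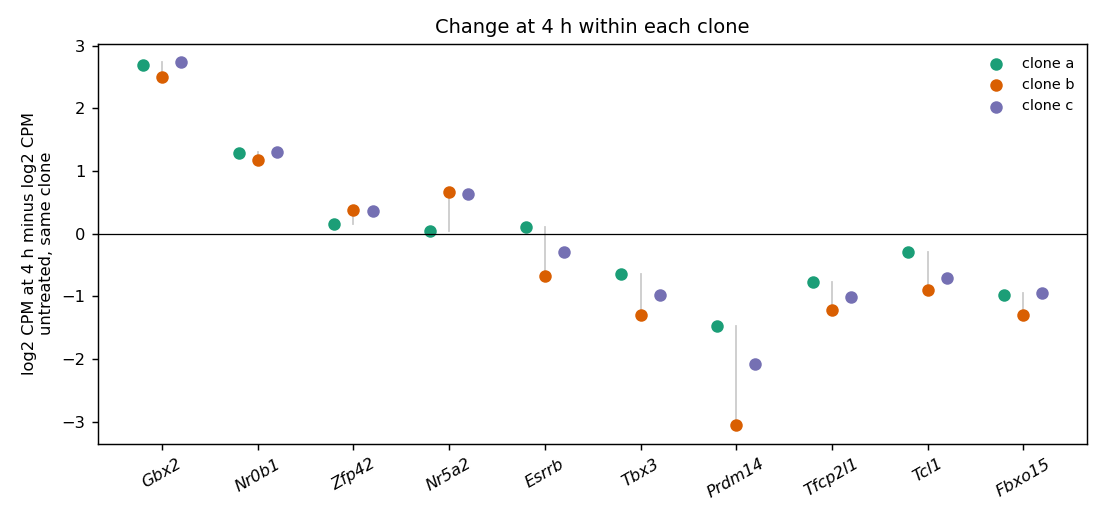
Log2 CPM at 4 h minus log2 CPM untreated within each clone, for the 10 members; each point is 1 clone and the grey line spans the 3. Clone b is the lowest point in every falling member, and in Prdm14 it is at −3.06 against −1.47 in clone a.

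Per length of exon the members spanned a wide range of levels. In untreated cells Zfp42 was highest at 331 ± 34.9 FPKM (CPM divided by exon length in kilobases; SD, n = 3), followed by Tfcp2l1 at 192 ± 55.5. Fbxo15 (124 ± 4.61 FPKM) and Esrrb (117 ± 9.82 FPKM) overlapped, as did Prdm14 (22.3 ± 0.97 FPKM) and Tbx3 (21.9 ± 4.21 FPKM), so neither pair has an order. Tcl1, Nr0b1 and Nr5a2 lay between these pairs at 74.4 ± 14.3, 49.6 ± 5.35 and 36.3 ± 7.96 FPKM. Gbx2 was the lowest at 2.30 ± 0.47 FPKM.

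At 4 h Zfp42 was still the highest at 409.6 ± 65.1 FPKM. Nr0b1 at 118 ± 6.49, Tfcp2l1 at 98.6 ± 35.5 and Esrrb at 97.5 ± 20.4 FPKM came next and overlapped each other in turn, and with the longest transcript as the length Esrrb came before Nr0b1. Fbxo15, Nr5a2 and Tcl1 followed at 59.7, 49.1 and 47.7 FPKM, also with overlap. Gbx2 at 14.7 ± 3.80 and Tbx3 at 11.2 ± 2.47 FPKM overlapped, and Prdm14 at 5.37 ± 2.81 FPKM lay below both in every clone. Summed over the 10 members, CPM went from 4191, 3718 and 4730 in the untreated clones to 3385, 2735 and 3487 at 4 h, lower in each clone. The sum differed by 806, 982 and 1243 CPM in clones a, b and c, and Tfcp2l1 alone by 769, 721 and 1161 CPM. This gene thus carries most of the difference in CPM. A sum of CPM gives more weight to genes with longer exons. Tfcp2l1 has the most exon bases of the 10 members, 9438 against 1881 in Zfp42. Per length Tfcp2l1 went from 192 to 98.6 FPKM on average and Zfp42 from 331 to 409.6 FPKM. A sum per length was not computed.

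**Figure D4:**
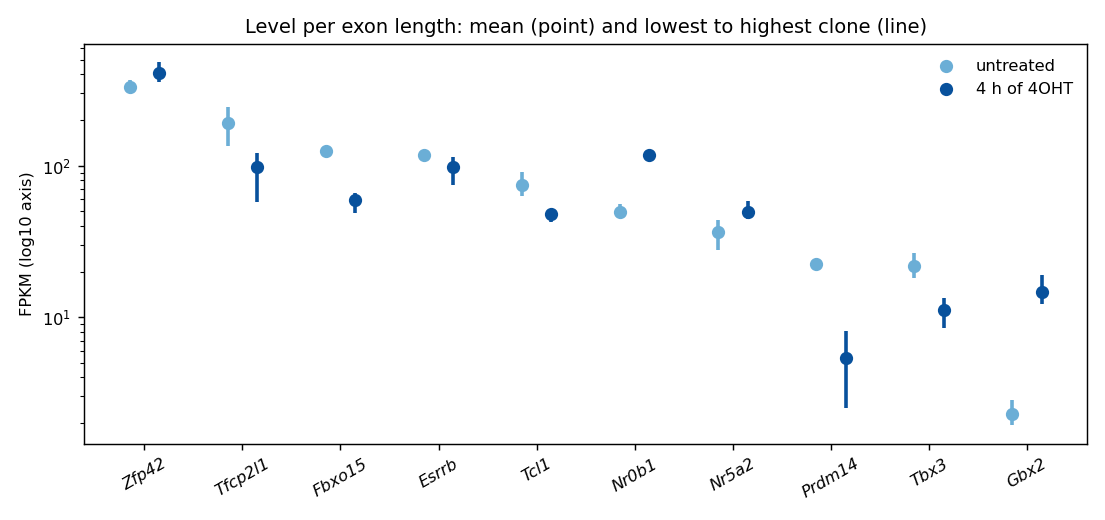
Mean FPKM (log10 axis) of the 10 members in untreated cells and at 4 h, with lines from the lowest to the highest clone (n = 3). Gbx2 goes from 2.30 to 14.7 and Prdm14 from 22.3 to 5.37, so that their order is exchanged.

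Other pluripotency genes, from lists chosen with earlier results of these data known, gave a setting for these values. Over all genes tested 18.0% rose and 15.1% fell at 4 h. Of 17 other naive genes, 2 rose and 8 fell at 4 h, with a median change of −0.33. Nanog fell by 1.31 and Fgf4, the ligand of the FGF pathway, by 1.39, while Klf5 rose by 0.99. Of 8 general pluripotency genes that formative cells also express, 5 rose and none fell, with a median of 0.53, Dppa4 at 0.84 and Utf1 at 1.60 among them. Of 15 formative epiblast genes, 10 rose and none fell, with a median of 0.93, and the POU factor Pou3f1 rose by 3.27. Genes past the test in both directions were found among the members and among the other naive genes.

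Among 11 genes of the STAT3 and LIF response 3 rose and 1 fell at 4 h, with Junb at 3.40, Pim1 at 1.37 and Klf4 at −1.09. Of 9 tested targets of Wnt signalling or Tcf7l1 repression, 6 rose and none fell. Of 7 tested nuclear receptors related to Esrrb, Nr5a2 and Nr0b1, Rarg (1.68) and Nr6a1 (0.49) rose and none fell. Among 8 tested relatives of Tbx3, Gbx2 and Tfcp2l1, Grhl2 (1.98) and Grhl3 (1.66) rose and Tfcp2 fell (−0.64). Of 10 tested cofactors of the members, Akt1, the kinase bound by Tcl1, rose by 0.85, Ncoa3, a coactivator of Esrrb, by 0.51 and Eed by 0.20, and Cbfa2t2 alone fell. The counts of 3 of 11, 2 of 7, 2 of 8 and 3 of 10 higher stand beside 18.0% of all genes and are not read as results about these lists.

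**Figure D5:**
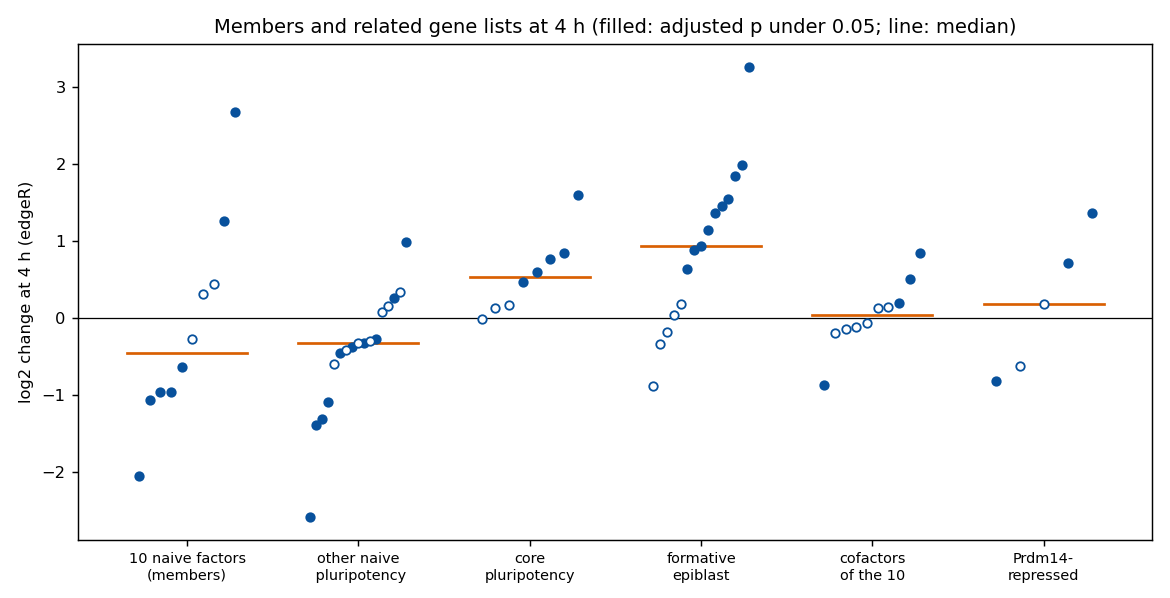
Log2 change at 4 h (edgeR) of the 10 members and of genes in 5 related lists; each point is 1 gene, filled where the adjusted p is under 0.05, and the line is the list's median. The members and the other naive genes have medians of −0.45 and −0.33 with points on both sides of 0, and formative genes have a median of 0.93.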

How the data were processed

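Ribosomal RNA was depleted before sequencing, per the labels' protocols. Raw read counts of 12 libraries were deposited by the authors in 1 table with a row for each gene symbol. STAR, featureCounts, DESeq and the mm10 build are named in the submitters' processing notes. The sources used here do not give their versions, the annotation, the strand setting or how reads with several alignments were counted.

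Genes passed edgeR's filterByExpr with a count of at least 10 and a total of at least 15 (14185 tested, 11712 not) and were scaled by TMM. All 12 libraries entered 1 quasi-likelihood model with a coefficient for each group, tested 2-sided, in R 4.3.3 with limma 3.58.1 and edgeR 4.0.16. The model had 8 residual degrees of freedom and a biological coefficient of variation of 0.163. SE was |log2 change| over the root of F. Within-clone log2 CPM used a prior count of 2, and FPKM used exon lengths of GENCODE M21 (GRCm38).

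Clone letters name the same clone at every time and therefore pair libraries. Across 18 pairs of libraries from the same clone, deviations from the group means had r of 0.184 to 0.684, and between clones −0.568 to −0.024. Blocking on clone left 6 residual degrees of freedom. Libraries within a group differed beyond sampling noise in all 12 pairs, with chi-square over its degrees of freedom from 18.53 to 103.41.

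The members and lists were chosen with earlier results of these data known. All members are named, with up to 4 genes per list by smallest p among those past the test, and for the member with the largest rise and that with the largest fall the 3 genes with the nearest within-clone changes. Alternatives were RLE scaling, no filter, DESeq2 1.42.0, limma-voom, the block, the 2 groups alone, and each library or clone left out.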

Additional observations from a re-analysis of the deposited data

How the results depend on the processing

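Replacing TMM by RLE scaling, dropping the filter or using limma-voom kept each count of members called within 1.5 times. DESeq2 called 1 member at 1 h in place of 0 and 2 from 1 to 2 h in place of 0. With clone as a replicate block the counts were 2 at 1 h, 8 in place of 5 at 2 h and 5 from 1 to 2 h. With the 2 groups alone, 0 in place of 4 were called from 2 to 4 h. Leaving out each library or clone gave 0 to 0 members at 1 h, 0 to 6 at 2 h and 4 to 8 at 4 h. Between treated times the counts were 0 to 0 from 1 to 2 h, 0 to 4 from 2 to 4 h and 1 to 7 from 1 to 4 h. In the F test they were 1 to 8. These leave-out fits had no clone block. For the test between clones only single libraries were left out, which gave 4 to 9. With a clone left out each group had 2 libraries. Tbx3, Nr0b1, Gbx2 and Fbxo15 passed at 4 h in all 21 alternatives. Signs turned only in changes near 0 that did not pass. These ranges were −0.19 to 0.10 for Tbx3, −0.32 to 0.10 for Tfcp2l1, −0.17 to 0.14 for Nr5a2 and −0.11 to 0.17 for Tcl1 at 1 h. They were −0.0862 to 0.0624 for Esrrb and −0.18 to 0.11 for Tcl1 at 2 h, and −0.18 to 0.0452 for Tcl1 from 1 to 2 h. They were −0.22 to 0.12 for Tbx3 and −0.0208 to 0.21 for Nr5a2 from 2 to 4 h, and −0.27 to 0.0187 for Zfp42 from 1 to 4 h. Esrrb at 2 h was 0.0064 with RLE scaling, 0.0116 without the filter and 0.0064 with DESeq2, and Nr5a2 at 1 h was 0.0027 without the filter. The cause of these shifts was not tested. Tfcp2l1, whose level differed between clones, had an SE of 0.32 at 4 h without the block and 0.09 with it.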
